A study of Drosophila melanogaster with 2 samples.

Results

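Genes for subunits of the proteasome were followed in a map of where CG15710, profiled as a transcription factor, sits on chromatin in Drosophila melanogaster pupae. Members were the protein-coding genes of the Ensembl BDGP6 annotation whose symbol begins with Prosalpha, Prosbeta, Rpn or Rpt and then a digit, which gave 48 of 13945 protein-coding genes. The map came from chromatin immunoprecipitation and sequencing (ChIP-seq) of whole pupae aged 24 hours, of both sexes pooled, from a transgenic line with GFP joined to the C-terminus of CG15710 and an antibody to GFP. There was 1 group, with 2 biological replicates that the labels number 1 and 3, so no comparison between conditions exists and no test over samples could be made. Whole animals were used, so the tissue in which a site was occupied cannot be told apart, and the peak lists hold no expression values with which to check the stage.

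The proteasome is the protease that degrades proteins marked with ubiquitin. Its core particle is a barrel of alpha and beta subunits, with the alpha rings as gates at the ends and the proteolytic sites on beta subunits inside. The regulatory particle caps the barrel: the Rpt subunits form a ring of ATPases that unfolds substrates, and the Rpn subunits bind ubiquitin chains, remove them and hold the particle together. In flies the subunits used in most cells have paralogs, named with an R or a T after the subunit number, many of which are known for expression in the testis. Here 16 members were such R or T paralogs (11 of core subunits and 5 of regulatory subunits) and 32 were main copies (14 core and 18 regulatory).

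The deposited data were peak lists on genome build dm6. Each list for a replicate, and the list for both replicates pooled, held 30000 peaks, and the list kept by an irreproducible discovery rate (IDR) step held the 28.3% of the pooled peaks with the highest signal. A gene was counted as bound when the summit of a peak lay within 500 bp of any of its annotated transcription start sites (TSSs). A signal is the authors' value for a peak. Its scale is unstated, and the IDR list carries the pooled signals while each replicate has its own, so replicates are set side by side by rank, where 1 is the strongest peak of a list. Read counts are not part of these lists, and the depth behind each peak is unknown. Intervals are exact Clopper-Pearson 95% intervals that cover counting of genes only, and genes are not replicates of a condition.

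Promoters of the main copies often carried a summit, and those of the paralogs almost never did. In the IDR list 13 of the 48 members were bound (27.1%, 15.3 to 41.8), against 24.6% of all protein-coding genes, so the members as a whole lay near the background. Of the paralogs 0 of 16 were bound (0%, upper bound 20.6%), and of the main copies 13 of 32 (40.6%, 23.7 to 59.4). In the highest-signal part of the IDR list alone, 4 of 32 main copies were bound (12.5%), against 13.6% of protein-coding genes. Their excess over the background was therefore not seen among the stronger peaks. In the pooled list 1 of 16 paralogs (6.25%, 0.158 to 30.2) and 27 of 32 main copies (84.4%, 67.2 to 94.7) were bound, against 47% of all protein-coding genes. The same order held in each replicate: 2 paralogs and 26 main copies had a summit in replicate 1, where the background was 48.2%, and 0 paralogs and 25 main copies had one in replicate 3, where it was 46.6%. The difference between paralogs and main copies was not tested, since both are groups of genes from the same 2 replicates.

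**Figure D1:**
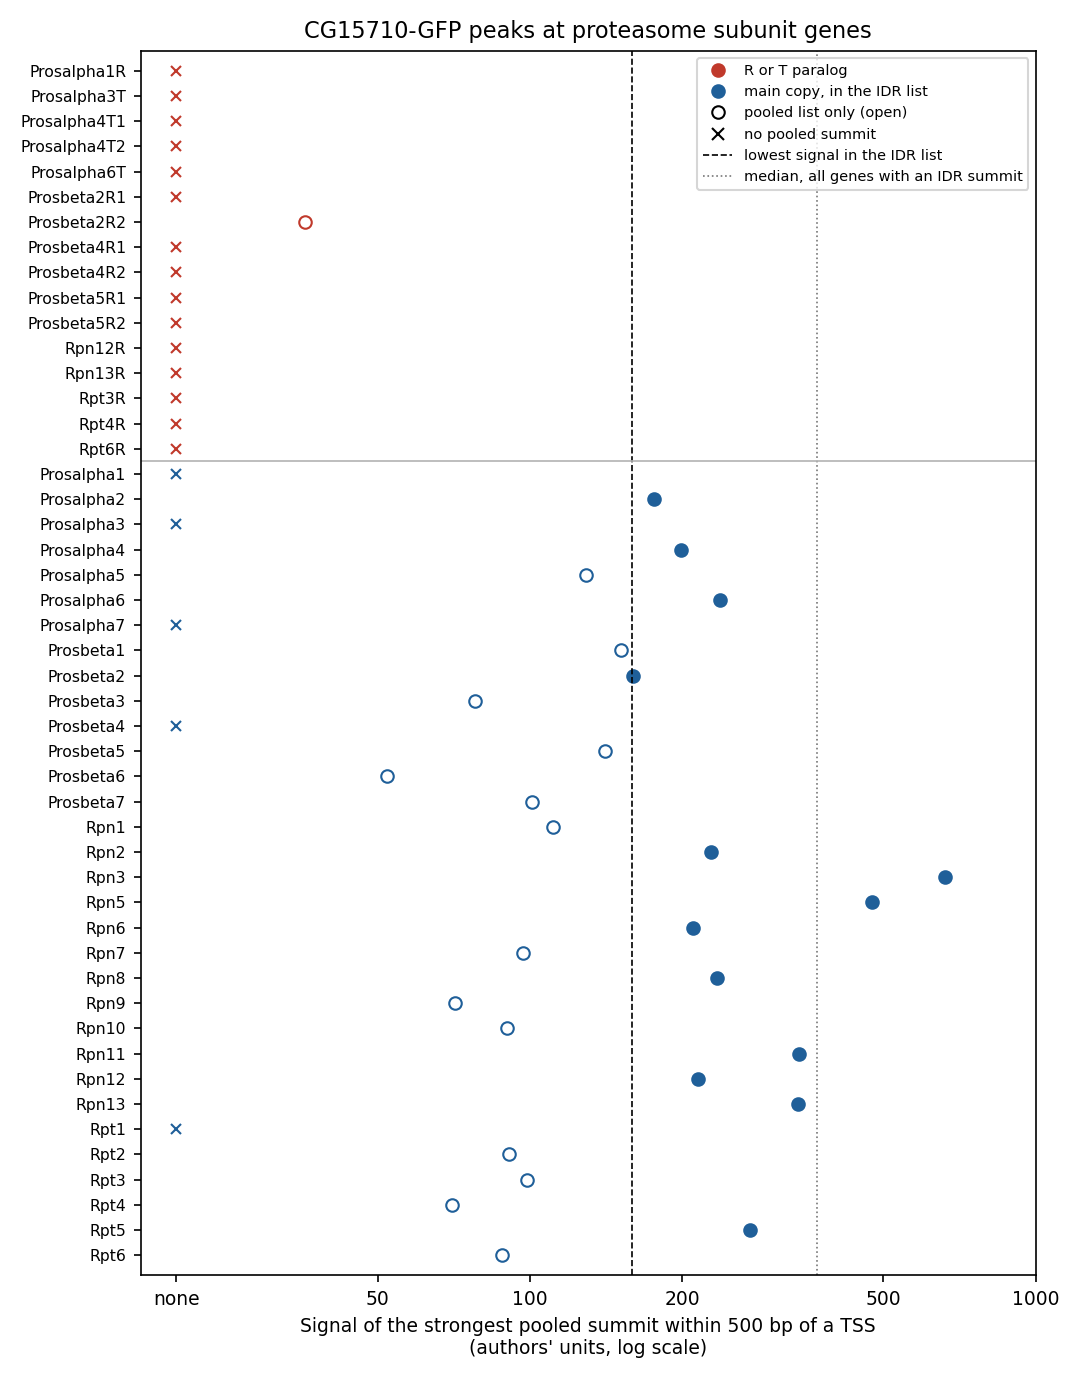
Signal of the strongest pooled summit within 500 bp of a TSS for each of the 48 members (x axis, authors' units on a log scale), with the R or T paralogs above the main copies; crosses at the left mark members without a pooled summit and carry no signal. The 13 filled points are the main copies in the IDR list, at 159.9 to 660.7, and the paralog with a pooled summit, Prosbeta2R2, is at 35.90.

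**Figure D2:**
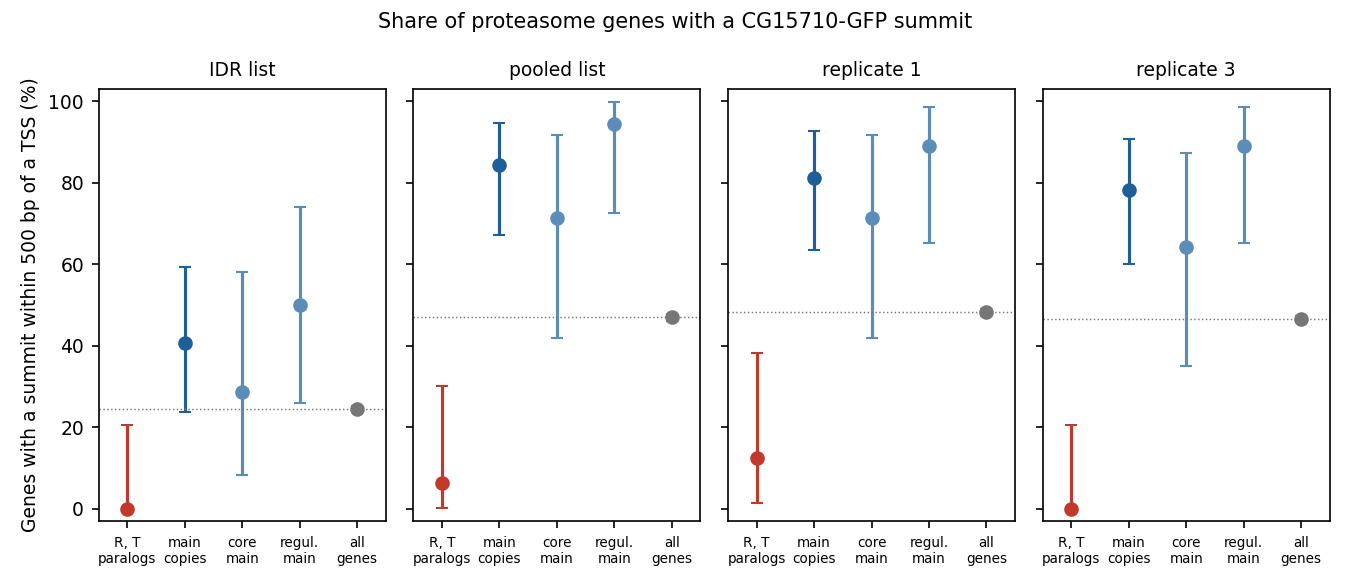
Share of genes with a summit within 500 bp of a TSS (y axis, percent, with 95% Clopper-Pearson intervals) in each of the 4 lists, for R and T paralogs, main copies, core and regulatory main copies and all protein-coding genes, whose share is also the dotted line. The paralogs lie below the line and the main copies above it in every list shown.

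Peaks at proteasome genes were weak within the IDR list. The strongest summit per bound member had a median signal of 233.8 (159.9 to 660.7, n = 13 genes), against a median of 369.0 over the 3426 bound protein-coding genes. By rank the members ran from 1913 to 8441 in the IDR list, with a median of 5955, against a median of 3792 over all bound genes. Rpn3 and Rpn5 were the members above the median signal of bound genes. Prosbeta2 lay just inside the list (signal 159.9, where the lowest IDR signal is 159.0), and Prosbeta1 was the unbound member nearest to it, with a pooled signal of 151.4 at rank 8838.

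Summits at the bound members lay upstream of the start site. The strongest summit was upstream at 12 of 13 members, at a median of -166 bp from the nearest TSS of the gene (-283 to 1 bp), against 84.5% upstream and a median of -140 bp over all bound protein-coding genes. The exception was Rpt5, at 1 bp downstream. At 10 of the 13 members the same summit was within 500 bp of a TSS of another protein-coding gene, and at 5 of them (Prosalpha4, Prosalpha6, Prosbeta2, Rpn5 and Rpn8) it was nearer to that gene's TSS than to the member's. The same shares over all bound protein-coding genes were not counted, so sharing cannot be called particular to the members. Which gene a shared summit belongs to cannot be told apart from these lists. When a summit was given to the gene of the nearest TSS alone, 8 members remained bound (16.7%), all of them main copies, against 18.5% of protein-coding genes. Over all protein-coding genes that rule lowered the number bound from 3426 to 2583.

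**Figure D3:**
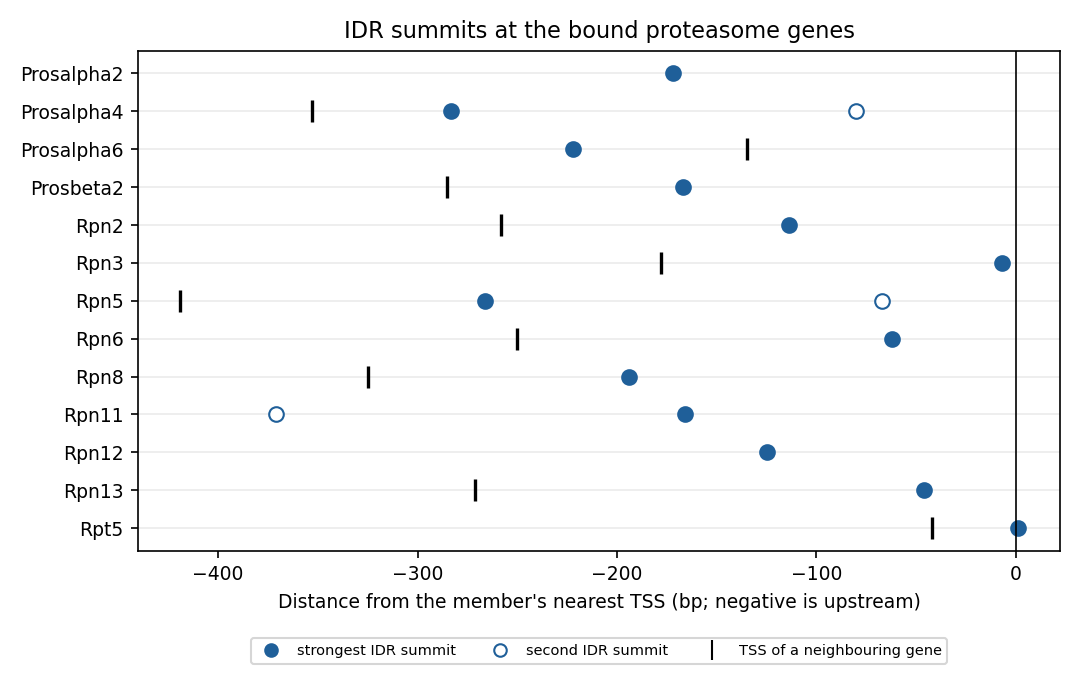
Position of IDR summits at the 13 bound members (x axis, bp from the member's TSS nearest to the summit, negative upstream); filled points are the strongest summit, open points a second one, and black ticks the TSS of the neighbouring gene that lies within 500 bp of the strongest summit. The strongest summit is upstream at 12 members, and 10 rows carry a neighbour's tick.

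The core particle had fewer bound main copies, and weaker peaks, than the regulatory particle. Of the core main copies 4 of 14 were bound in the IDR list (28.6%, 8.39 to 58.1), and of the regulatory ones 9 of 18 (50%, 26.0 to 74.0), against 24.6% of all protein-coding genes. The core share lay near that background. The median signal was 187.7 (159.9 to 237.1) at the 4 bound core genes and 271.9 (210.0 to 660.7) at the 9 bound regulatory genes. In the pooled list 10 of 14 core and 17 of 18 regulatory main copies had a summit. The intervals overlap widely and the difference was not tested. Its size varied with the choices made, while the regulatory share was the higher one under each alternative. Among the 4241 IDR peaks of highest signal, which reached 13.6% of protein-coding genes, 0 core and 4 regulatory main copies were bound. When a summit counted for the gene of the nearest TSS alone, 1 core (7.14%) and 7 regulatory main copies (38.9%) were bound, against 18.5% of protein-coding genes. The gap was narrowest with the most upstream TSS alone, at 4 core (28.6%) and 7 regulatory main copies (38.9%), against 21.9%. Of the regulatory main copies 44.4% had 2 or more TSSs, and of the core ones 14.3%, against 26.5% of protein-coding genes. The part of TSS number in the difference was not tested. Within the particles the families were uneven: the IDR list held 3 of 7 alpha, 1 of 7 beta, 8 of 12 Rpn and 1 of 6 Rpt main copies, and the pooled list 4, 6, 12 and 5 of them, where the shares over all protein-coding genes were 24.6% and 47%.

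The sequences under the summits were rich in A and T. Windows of 50 bases on each side of the 16 IDR summits at members had a median GC content of 29.7%, against 31.7% for the 2852 IDR summits within 500 bp of a protein-coding TSS. Windows at 6 members are shown, to let the summit sequence be set beside the signals that follow. They are given 5′ to 3′ on the strand of the gene, from the RefSeq copy of the dm6 assembly, and capitals mark matches on either strand to the DRE (TATCGATA), its core (CGATA, which lies inside every DRE), the core of motif 1 (GGTCACACT), the E-boxes CAGCTG and CACGTG, or GATAAG.
Prosalpha6, chr2L:10221079-10221179, plus strand: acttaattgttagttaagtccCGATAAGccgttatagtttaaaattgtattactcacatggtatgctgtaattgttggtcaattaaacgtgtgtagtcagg
Prosbeta2, chr3L:14999734-14999834, plus strand: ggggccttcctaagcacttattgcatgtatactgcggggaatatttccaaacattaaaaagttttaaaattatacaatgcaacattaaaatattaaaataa
Rpn3, chr2L:19051733-19051833, plus strand: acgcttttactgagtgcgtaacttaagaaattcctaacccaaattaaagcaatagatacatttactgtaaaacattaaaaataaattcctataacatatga
Rpn5, chr3R:5789177-5789277, plus strand: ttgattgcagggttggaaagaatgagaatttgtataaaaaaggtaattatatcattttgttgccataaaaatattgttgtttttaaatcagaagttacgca
Rpn11, strongest summit, chr2L:5059906-5060006, minus strand: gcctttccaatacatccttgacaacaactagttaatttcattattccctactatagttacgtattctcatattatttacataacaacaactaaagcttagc
Rpn11, second summit, chr2L:5060111-5060211, minus strand: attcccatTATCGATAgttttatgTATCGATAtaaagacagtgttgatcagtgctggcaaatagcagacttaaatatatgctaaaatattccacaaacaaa
Rpt5, chr3R:23752827-23752927, plus strand: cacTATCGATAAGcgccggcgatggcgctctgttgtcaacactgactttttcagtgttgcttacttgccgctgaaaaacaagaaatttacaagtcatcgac

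Among these windows those of Prosbeta2, Rpn3, Rpn5 and the strongest Rpn11 summit hold no match to the capitalised motifs. The second Rpn11 window holds a pair of DREs, and the Rpt5 window 1 DRE whose end overlaps a GATAAG match. The Prosalpha6 window holds a CGATAAG run, a DRE core that overlaps GATAAG. GC content over 13 of the 16 windows ran from 21.8% to 45.5%, with Prosalpha2 and Rpt5 at the upper end.

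Bound alpha subunit genes, which encode the rings that gate the barrel, were Prosalpha2, Prosalpha4 and Prosalpha6. At Prosalpha6 (2L, 10221351 to 10222546) the IDR peak at 10220929 to 10221328 had a signal of 237.1 and rank 5877. Its summit lay in an intron of Npc1a, 222 bp upstream of Prosalpha6, and the Npc1a TSS was 87 bp away. The replicates ranked the strongest Prosalpha6 summit 7411 (replicate 1, signal 115.4) and 4414 (replicate 3, signal 129.7), with summits 78 bp apart. Npc1a, the neighbour, encodes a sterol transport protein.

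Prosalpha4, on the X chromosome, carried a pair of overlapping IDR peaks, at 16275787 to 16276186 (signal 199.1, rank 6888, -283 bp) and 16275990 to 16276389 (signal 180.4, rank 7541, -80 bp). The first summit lay in an intron of kat80, which encodes a subunit of the microtubule-severing enzyme katanin, and both were nearer to a kat80 TSS (70 and 10 bp). The strongest summit of Prosalpha4 ranked 7376 in replicate 1 (signal 115.9) and 5380 in replicate 3 (signal 105.2), and these summits were 155 bp apart. That was the widest gap between replicates among the bound members, and no replicate 3 summit lay within 100 bp of the first IDR summit.

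Prosalpha2 (3R) had its summit in a coding exon of the neighbouring gene CG5245, 172 bp upstream of its own TSS, in the peak at 12430949 to 12431348 (signal 176.4, rank 7712). It ranked 8113 in replicate 1 (signal 105.0) and 7805 in replicate 3 (signal 69.92). No other TSS lay within 500 bp of this summit. Of the other alpha main copies, Prosalpha5 had a pooled summit outside the IDR list (signal 128.9, rank 10092, -5 bp) and ranked 8488 in replicate 1 and 15085 in replicate 3, and Prosalpha1, Prosalpha3 and Prosalpha7 had none. Prosalpha7 had a summit in replicate 3 (rank 13772) and none in replicate 1.

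Beta subunits include the proteolytic ones: beta1, beta2 and beta5 carry the caspase-like, trypsin-like and chymotrypsin-like activities. Prosbeta2 (3L) was the bound beta gene, with a peak at 14999584 to 14999983 of signal 159.9 and rank 8441. Its summit lay between genes, at -167 bp from Prosbeta2 and -118 bp from the divergent gene mRpL39, which encodes a protein of the mitochondrial ribosome. It ranked 8833 in replicate 1 (signal 95.74) and 8269 in replicate 3 (signal 65.50). With replicate 1 alone, cut to as many of its strongest peaks as the IDR list holds (24.3% of protein-coding genes bound), Prosbeta2 was not bound. The genes of the other catalytic subunits had pooled summits under the IDR limit: Prosbeta1 had a signal of 151.4 at -57 bp, and Prosbeta5 one of 140.9 at -46 bp. Both were found in each replicate, Prosbeta1 at ranks 10553 and 9651 and Prosbeta5 at ranks 8971 and 10329 in replicates 1 and 3. Prosbeta7 (signal 101.5), Prosbeta3 (77.8) and Prosbeta6 (52.1 signal units) had weaker pooled summits, and Prosbeta4 had none in any list.

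Regulatory particle genes held the strongest summits, led by Rpn3, a scaffold subunit of the lid. The Rpn3 peak (2L, 19051691 to 19051943) had a signal of 660.7, rank 1913, with its summit at -7 bp from Rpn3 and -171 bp from the divergent gene l(2)37Bb. It ranked 1970 in replicate 1 (signal 395.0) and 1848 in replicate 3 (signal 268.4). Rpn5, another lid scaffold gene (3R), had a peak at 5789050 to 5789315 with a signal of 473.9 (rank 2905, -266 bp) and a second one at 5789293 to 5789469 with a signal of 266.2 (rank 5267, -67 bp). Both Rpn5 summits were nearer to a TSS of Hat1, which encodes a histone acetyltransferase, at 153 and 42 bp. The strongest Rpn5 summit ranked 3634 in replicate 1 (signal 235.4) and 2186 in replicate 3 (signal 239.0).

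Rpn11 encodes the deubiquitinase that removes ubiquitin chains from substrates, and Rpn8 its inactive partner. At Rpn11 (2L) the peak at 5059756 to 5060155 had a signal of 339.8 and rank 4109, with its summit between genes at -166 bp and no other TSS within 500 bp. A second Rpn11 summit, at -371 bp, had a signal of 166.6 (rank 8156) and no replicate 3 summit within 100 bp. The strongest summit ranked 4518 in replicate 1 (signal 190.6) and 3635 in replicate 3 (signal 155.1). Rpn8 (2R) had a signal of 233.8 at rank 5955 (24402611 to 24403010). That summit lay in an intron of Rpn8, 194 bp upstream of an internal Rpn8 TSS and 131 bp upstream of a TSS of the kinase gene Slik, and it did not count for Rpn8 when the most upstream TSS alone was used. Under that rule 11 members were bound, against 21.9% of protein-coding genes. Rpn8 ranked 6190 in replicate 1 (signal 139.3) and 5800 in replicate 3 (signal 97.34).

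Ubiquitin receptors of the particle include Rpn10 and Rpn13, and Rpn1 and Rpn2 are its largest scaffold subunits. Rpn13 (2R) had a signal of 339.1 at rank 4114, in a peak at 13960358 to 13960550 whose summit was -46 bp from Rpn13 and -225 bp from the divergent gene CtsL1. The replicates gave it ranks of 4238 in replicate 1 (signal 203.0) and 4213 in replicate 3 (signal 135.7), the closest pair among the bound members. Rpn10 was not in the IDR list and had a pooled signal of 89.9 at -17 bp, with a replicate 1 summit (rank 12555) and none in replicate 3. Rpn2 (3R) had a signal of 228.1 at rank 6105 (29153210 to 29153609), with its summit at -114 bp from Rpn2 and -144 bp from the divergent gene Slbp, whose product binds the stem-loop of histone mRNAs. It ranked 7367 in replicate 1 (signal 116.1) and 4790 in replicate 3 (signal 119.4). Rpn1 had a pooled signal of 110.9 at -103 bp and differed most in rank between replicates among the Rpn genes, at 19773 in replicate 1 and 6921 in replicate 3. With replicate 3 alone, cut in the same way (24.8% of protein-coding genes bound), Rpn1 was bound.

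The other bound Rpn genes were Rpn6 and Rpn12, both of the lid. Rpn6 (2R) had a signal of 210.0 at rank 6583 (14752133 to 14752532), with its summit in an Rpn6 intron, 62 bp upstream of an internal TSS and 188 bp upstream of a TSS of ave. Like Rpn8, Rpn6 was not bound when the most upstream TSS alone was used. Rpn12 (3L) had one of 215.2 at rank 6425 (16582703 to 16583102), at -125 bp with no other TSS within 500 bp. In replicates 1 and 3 the ranks were 7205 and 5593 at Rpn6, and 7070 and 5835 at Rpn12. Rpn7 (pooled signal 96.9) and Rpn9 (pooled signal 71.2) had summits in both replicates and in the pooled list but not in the IDR list. The strongest summits in replicates 1 and 3 were not at the same place, at -92 and -271 bp for Rpn7 and at -166 and 214 bp for Rpn9.

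Of the 6 ATPase genes, Rpt5 was bound. Its IDR peak (3R, 23752777 to 23752876) had a signal of 271.9 and rank 5142, and the deposited summit was the base next to the end of the peak, in the 5′ UTR of Rpt5, 1 bp downstream of the TSS. The divergent gene RanBP3 starts 42 bp upstream. Rpt5 ranked 5599 in replicate 1 (signal 154.3) and 4838 in replicate 3 (signal 118.3). Rpt2, Rpt3, Rpt4 and Rpt6 had pooled signals of 90.9, 98.8, 70.0 and 87.9, and Rpt1 had no summit in any list. Over both particles 14 main copies had a pooled summit without an IDR one, with signals of 52.06 to 151.4 (median 93.91), and 4 had no summit in any list (Prosalpha1, Prosalpha3, Prosbeta4 and Rpt1).

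Between replicates 1 and 3 the strongest summits of the 13 bound members were 12 to 155 bp apart (median 37.0 bp), and 10 pairs were within 100 bp. The median distance over the 3290 bound protein-coding genes with a summit in both replicates was 23.0 bp, and 2982 of these pairs were within 100 bp, so the summits of members lay somewhat farther apart than those of bound genes in general. Of the 16 IDR peaks at members, 16 had a replicate 1 summit within 100 bp and 14 a replicate 3 summit. The IDR list was made from these replicates, so they are not an independent check of it.

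**Figure D4:**
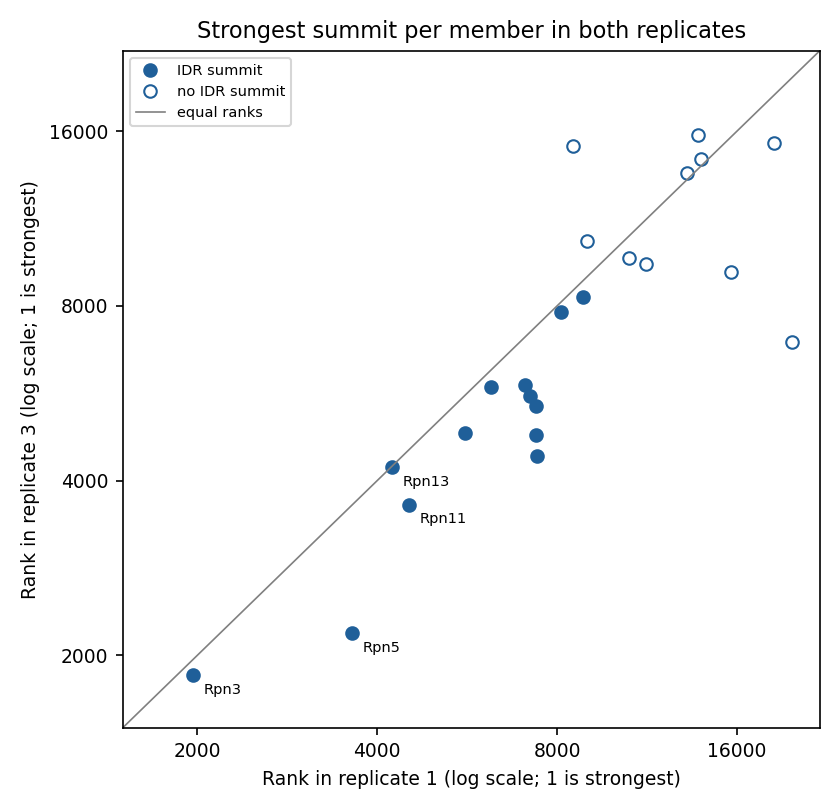
Rank of the strongest summit within 500 bp of a TSS in replicate 1 (x axis) and replicate 3 (y axis), both on log scales where 1 is the strongest of 30000 peaks, for the members with a summit in both; filled points have an IDR summit. The 13 filled points lie below the line of equal ranks, from Rpn3 (1970 and 1848) to Prosbeta2 (8833 and 8269).

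Paralogs were far from IDR summits and stood alone more often than their main copies. The distance from a TSS to the nearest IDR summit had a median of 14062 bp over the 16 paralogs (3469 to 56630), 1988 bp over the 32 main copies (1 to 13275) and 4700 bp over all protein-coding genes. Prosbeta2R2 had the paralogs' pooled summit, with a signal of 35.90 at rank 25380 and -102 bp, next to the divergent gene CG1116. It was found in replicate 1 (rank 18683) and not in replicate 3. Rpt3R had a replicate 1 summit (rank 12881, 82 bp downstream) and none in the other lists, and the other 14 paralogs had no summit in any list.

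Both kinds of gene also differed in their promoters and structure. An opposite-strand start of another protein-coding gene lay within 1000 bp upstream at 3 of 16 paralogs (18.8%), 19 of 32 main copies (59.4%) and 35.2% of all protein-coding genes. Over all protein-coding genes 41.3% of such divergent promoters and 15.5% of the others were bound in the IDR list. Within the divergent class 0 of 3 paralogs and 8 of 19 main copies were bound (42.1%), and within the other class 0 of 13 paralogs and 5 of 13 main copies (38.5%). The canonical transcript had a single exon in 6 paralogs (37.5%), 4 main copies (12.5%) and 16.1% of all protein-coding genes. The part of these features in the difference in binding was not tested.

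Set against their own main copies, 7 paralogs had a bound partner. Prosalpha4T1 and Prosalpha4T2 had no summit in any list, against a signal of 199.1 at Prosalpha4. Prosalpha6T had none, against 237.1 at Prosalpha6. Prosbeta2R1 had none and Prosbeta2R2 the pooled signal of 35.90, against 159.9 at Prosbeta2. Rpn12R and Rpn13R had none, against 215.2 at Rpn12 and 339.1 at Rpn13. Main copies without a paralog in the annotation were bound in 8 of 20 cases and those with one in 5 of 12, against 24.6% of all protein-coding genes.

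The DRE (DNA replication-related element), a motif bound by the factor DREF at promoters of many broadly expressed genes, was found in 12 main copy promoters and in 0 paralog promoters. In the window from 250 bases before to 50 after the most upstream TSS, TATCGATA was found in 0 of 16 paralogs (0%), 12 of 32 main copies (37.5%) and 9.36% of all 13945 protein-coding promoters. Bound and unbound main copies both held it, 6 of 13 (46.2%) with an IDR summit and 6 of 19 (31.6%) without. Over all protein-coding promoters with an IDR summit the share was 13.6%. The shorter CGATA was in 8 of 16 paralogs (50%), 27 of 32 main copies (84.4%) and 47.4% of all promoters. With 100 bases before the TSS in place of 250, TATCGATA was in 0 paralogs, 8 main copies (25%) and 7.63% of all promoters, and CGATA in 3 paralogs (18.8%), 22 main copies (68.8%) and 34.3% of all promoters. In that shorter window the order of bound and unbound main copies turned round, with TATCGATA in 3 of 13 (23.1%) and 5 of 19 (26.3%). The longer window, from 250 bases before the TSS, leaves out the pair of DREs farther upstream at Rpn11. At the 6 bound members with a DRE in it, the nearest one was 43 to 210 bp from the strongest summit (median 164 bp). For most of these 6 the DRE was therefore outside the summit window. A match is a description of the letters and does not show that DREF is there.

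Other motifs were searched on both strands in the same windows. GAGAG, the motif of the GAGA factor, was found in 6 of 16 paralogs (37.5%), 3 of 32 main copies (9.38%) and 29.7% of all promoters. In the shorter window from 100 bases before to 50 after the TSS it was in 1 of 16 paralogs (6.25%), 1 of 32 main copies (3.12%) and 18.0% of all promoters, so the paralogs turned from above the share of all promoters to below it. The core of motif 1, GGTCACACT, was in 0 paralogs, 5 main copies (15.6%) and 6.05% of all promoters. TGACNNNGC, the antioxidant response element read by the Nrf family factor encoded by cnc, was in 1 paralog (6.25%), 5 main copies (15.6%) and 8.63% of all promoters. GATAAG was in 3 paralogs (18.8%), 12 main copies (37.5%) and 18.9% of all promoters, and it overlaps CGATA where the letters run CGATAAG. The initiator TCAGT and the TATA box TATAAA were at 50% and 31.2% of paralogs, 56.2% and 40.6% of main copies, and 51.5% and 45.8% of all promoters. The E-box CAGCTG was in 1 paralog and 1 main copy, and CACGTG in 0 members, against 17.7% and 4.20% of all promoters.

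**Figure D5:**
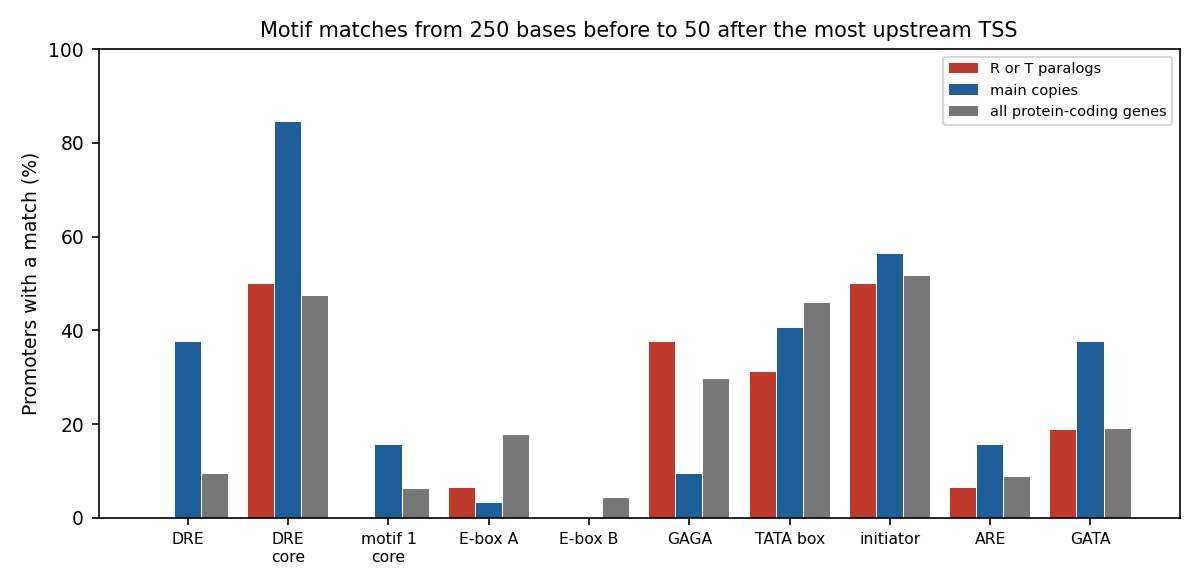
Share of promoters (y axis, percent) with at least 1 match on either strand to each of the 10 motifs (x axis) from 250 bases before to 50 after the most upstream TSS, for R or T paralogs (16), main copies (32) and all protein-coding genes (13945). E-box A is CAGCTG and E-box B CACGTG. The DRE is at 0% of paralogs, 37.5% of main copies and 9.36% of all genes.

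Promoters of some of the paralogs and of their bound main copies are shown to let the presence and absence of these motifs be read directly. Each runs 5′ to 3′ on the strand of the gene, from 100 bases before to 50 after the most upstream TSS, with the same capitals as the summit windows.
Prosalpha6T, chr2L:13231939-13232088, plus strand: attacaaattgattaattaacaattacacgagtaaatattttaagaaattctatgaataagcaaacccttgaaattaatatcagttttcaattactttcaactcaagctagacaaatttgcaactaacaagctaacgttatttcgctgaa
Prosalpha6, chr2L:10221251-10221400, plus strand: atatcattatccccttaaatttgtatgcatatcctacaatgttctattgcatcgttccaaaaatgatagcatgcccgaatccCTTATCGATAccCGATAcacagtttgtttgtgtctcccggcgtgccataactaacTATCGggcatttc
Prosbeta2R1, chrX:5808854-5809003, plus strand: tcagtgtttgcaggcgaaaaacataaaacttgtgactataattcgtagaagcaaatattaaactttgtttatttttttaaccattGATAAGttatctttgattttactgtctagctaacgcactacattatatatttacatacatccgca
Prosbeta2R2, chr3R:5219479-5219628, minus strand: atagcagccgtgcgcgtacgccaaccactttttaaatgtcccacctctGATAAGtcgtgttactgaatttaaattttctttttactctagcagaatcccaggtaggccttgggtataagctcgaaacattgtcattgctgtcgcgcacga
Prosbeta2, chr3L:14999851-15000000, plus strand: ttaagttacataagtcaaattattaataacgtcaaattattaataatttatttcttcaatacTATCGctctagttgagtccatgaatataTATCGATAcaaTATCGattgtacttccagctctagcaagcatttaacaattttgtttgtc
Rpn12R, chr3L:15042521-15042670, minus strand: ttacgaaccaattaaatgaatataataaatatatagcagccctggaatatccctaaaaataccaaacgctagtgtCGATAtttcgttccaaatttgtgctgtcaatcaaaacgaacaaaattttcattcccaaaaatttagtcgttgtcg
Rpn12, chr3L:16582928-16583077, plus strand: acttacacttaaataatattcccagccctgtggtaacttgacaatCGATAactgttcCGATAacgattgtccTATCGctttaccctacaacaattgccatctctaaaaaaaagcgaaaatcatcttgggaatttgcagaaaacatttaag

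Capitals in the main copies shown are mostly DREs and their cores, as in the CTTATCGATA stretch of Prosalpha6. In the paralogs they are GATAAG in Prosbeta2R1 and Prosbeta2R2 and a single CGATA in Rpn12R, and Prosalpha6T has none. Rpn12 has its DRE farther upstream, at -212 bp, so these 150 bases show only its shorter matches. The main copies shown all have a DRE in the longer promoter window. Prosalpha4, a bound main copy with paralogs that is not shown, has none there and holds the core of motif 1.

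Other genes of the pathway, from a list of 20 regulators, assembly factors and ubiquitin genes of which 19 were matched (1 by a RefSeq synonym), were bound at 8 of 19 in the IDR list (42.1%, 20.3 to 66.5) and at 15 of 19 in the pooled list (78.9%), against 24.6% and 47% of all protein-coding genes. The strongest was cnc, which encodes the fly factor of the Nrf family known to activate proteasome genes. Its peak in a cnc intron (3R, 23189920 to 23190241) had a signal of 841.8 at rank 1406, above every subunit gene, 316 bp downstream of 1 of its 10 TSSs. The ranks were 1590 in replicate 1 and 1160 in replicate 3. Keap1, the gene of the inhibitor of that factor, had a signal of 315.5 (-119 bp), and maf-S, the gene of its partner, one of 181.9 (-77 bp). The Keap1 summit was also -180 bp from a TSS of kuk, and the maf-S summit -218 bp from a TSS of rig. The polyubiquitin gene Ubi-p63E had a signal of 410.6 (109 bp downstream).

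Assembly and accessory genes had signals between those of maf-S and Keap1. Pomp, the gene of a maturation factor of the core particle, had a signal of 220.4 (-265 bp) and PI31, the gene of a proteasome regulator, one of 242.2 (-311 bp). The PI31 summit was nearer to a TSS of ADD1 (260 bp). Usp14, which encodes a deubiquitinase that binds the regulatory particle, had a signal of 213.8 (-144 bp). The Usp14 summit was also -252 bp from a TSS of CG4972, and no replicate 1 summit lay within 100 bp of it. Ufd1, whose product is a cofactor of the TER94 segregase, had a signal of 240.0 (31 bp downstream), at a summit -163 bp from a TSS of NaPi-III. Which gene a shared summit belongs to cannot be told apart here either. Sem1, which encodes a small subunit of the regulatory particle outside the naming rule, had a pooled signal of 74.06 and a summit in both replicates but not in the IDR list. REG, the gene of an alternative activator cap, had a summit in replicate 3 and none in the other lists.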

How the data were processed

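ChIP-seq peak lists for CG15710-GFP pupae (2 replicates, 1 group) were used as deposited. Per the deposited file descriptions, peaks were called for each replicate and for both pooled, with a further input that is not described, and an IDR step then gave the final list. For the aligner, peak caller and IDR threshold, names and versions were not given in the sources used here. The authors' signal (column 7) is on an unstated scale and served to rank peaks within a list. The deposited −log10 q-value (column 9) was not used. Build dm6 and the RefSeq sequence were checked by start codons (99.88% of 16229 read ATG). Genes came from Ensembl release 115 on 6 chromosome arms, and summits were start plus offset. At 3 IDR peaks the summit lay past the peak's end.

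Counting used Python 3.11.15, pandas 2.3.3 and scipy 1.17.1, and was checked on planted summits. No test was made, since 1 group gives none over samples. Alternatives were windows of 250 and 1000 bp, the 4241 IDR peaks of highest signal, as many of the strongest peaks of each replicate as the IDR list holds, the gene of the nearest TSS, the most upstream TSS, any base of the peak, and shorter promoter or longer summit windows. Named genes were all 48 members, the neighbours that share an IDR summit with them, and the listed pathway genes. Members, gene lists and motifs were chosen with earlier results of these data known.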

Additional observations from a re-analysis of the deposited data

How the results depend on the processing

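Among the 4241 IDR peaks of highest signal 4 members were bound (background 13.6%), all of them regulatory main copies (4 of 18), with 0 of 14 core main copies, a median signal of 406.8 and 2 of 19 other pathway genes. With the gene of the nearest TSS alone 8 members (16.7%), all main copies, and 1 core main copy (7.14%) were bound, against 18.5% of protein-coding genes. Both settings leave fewer peaks or fewer genes per peak by construction, and the background share also fell, from 24.6%. Among the 4241 peaks the members (8.33%) and the other pathway genes (10.5%) lay below the background of 13.6%. The part of the smaller lists in these drops was not tested. Without replicate 3 and without replicate 1 the members bound were 12 and 14, with Prosbeta2 lost in the first and Rpn1 gained in the second; core main copies were 3 and 4, regulatory ones 9 and 10, other pathway genes 12 and 9, and members in the full replicate lists 28 and 25. Paralogs bound in the IDR list, or in the strongest peaks of a replicate, were 0 under each of the 8 alternatives. The narrower window, the highest-signal peaks, the nearest TSS and the most upstream TSS can only remove genes, so their 0 was fixed beforehand. The wider window also had to give 0, since the IDR summit closest to any paralog TSS was 3469 bp away. Only the replicate lists and the rule of any base of the peak could have differed. Of the alternatives for the counts and medians, 55 stayed within 1.5 times the reported count or within the interval of the median, and 9 did not. The median rank of members, a comparison chosen after seeing the data, was 6630 without replicate 3 and 5109 without replicate 1. The median signal was not recomputed there, since each list has its own scale. In the shorter promoter window the member shares of 5 motifs (DRE core, GAGA, TATA box, initiator and GATA) moved outside their intervals, and in the longer summit window that of the DRE core did. No paired analysis was possible because there is 1 group of samples. The depth behind the peaks is unknown, so an absent summit shows no peak in these lists, not an absence of binding.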

Other observations

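The bound proteasome genes ranked higher in replicate 3 than in replicate 1 at 13 of 13 members, against 2042 of the 3290 protein-coding genes with a summit in the IDR list and in both replicates (62.1%). Unbound members went both ways: Prosalpha5, Prosbeta5, Prosbeta7, Rpt2 and Rpt4 ranked higher in replicate 1, and Prosbeta1, Rpn1, Rpn7, Rpn9 and Rpt3 in replicate 3. So did the bound pathway genes: Pomp, PI31, Ufd1 and Ubi-p63E ranked higher in replicate 1, and Usp14, cnc, maf-S and Keap1 in replicate 3. At Prosalpha6 the rank in replicate 1 was 1.68 times that in replicate 3, at Rpn5 1.66 times, and at Rpn13 1.01 times. This was seen after the values were known and was not tested, and members that share a library are not independent of each other.

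Uch-L5, which encodes a deubiquitinase of the regulatory particle, had a summit within 500 bp of its TSS in both replicates (signal 126.2 in replicate 1 and 84.24 in replicate 3) and none in the pooled or IDR list. Windows of 100 bases on each side of the 16 IDR summits at members held the DRE in 5 cases (31.2%), against 5.15% of the 2852 IDR summits within 500 bp of a protein-coding TSS, and with 50 bases on each side the shares were 12.5% and 2.49%.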
